A study of Mus musculus with 16 samples.

Results

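Cholesterol synthesis in mouse liver was followed through 7 genes, the enzyme genes Hmgcs1, Idi1, Fdps, Fdft1, Sqle and Lss and the regulator Insig1, all of them known targets of SREBP-2. They were taken as the array features that carried these gene names, 12 features for 7 of the 37074 gene names on the array, and all 7 genes passed the filter on dim features that left 20411 genes. The livers came from 16 C57BL/6 male mice that entered the study at 6 weeks of age, then ate normal chow (NC) over 4 weeks and were labelled as 10 weeks old. The 6 Conv + PBS mice were gavaged with reduced PBS (the labels call them controls without transplant), the 5 Conv + LM mice with caecal content of lean mice (LM, lean microbiota), and the 5 Conv + OM(HFD) mice with caecal content of obese mice fed a high-fat diet (HFD-microbiota). Caecal content was pooled over the donors of a kind and recipients had received no antibiotics to clear their own microbiota, and the mice of a transplanted group shared these pooled inocula, given by repeated gavage. The microbiota was not analysed here. No engineered allele was named for any group. The mice were group-housed under an inverted light cycle and fasted for several hours before they were killed, and neither the cage nor the time of death of each mouse was given in the sources used here.

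Liver RNA was hybridized to 1-colour Agilent arrays, 1 per mouse, on 2 slides that each held mice of all 3 groups. The 75th percentile of spot brightness ran from 221 to 316 over the 16 arrays, and 49.8% to 58.3% of the probes were well above background. Levels below are log2 of the spot signal minus log2 of that percentile, so that 0 is the 75th percentile of an array. They compare mice within a gene, not one gene with another. All 5 hepatocyte markers examined (Alb, Apoa1, Ttr, Cyp2e1 and Tat) were well above background on every array. In whole liver, fewer cells of a type and less RNA per cell cannot be told apart.

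Cholesterol is built from acetyl-CoA through mevalonate, isoprenoid units, farnesyl diphosphate, squalene and lanosterol. SREBP-2 is a transcription factor held in the endoplasmic reticulum with its escort SCAP. When sterols are scarce, SCAP carries it to the Golgi, where it is cut and released to switch on nearly every enzyme gene of the pathway. INSIG proteins retain the SCAP complex when sterols are plentiful, and Insig1 is itself a target, which closes a feedback loop. In liver the pathway also follows feeding and the circadian clock, in which BMAL1 (Arntl) and CLOCK drive their own repressors and output genes such as Dbp.

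Promoter sequence is shown for the members that the RefSeq table of GRCm38.p6 held, since genes that share a regulator are described here together. Each line gives the 250 bases before the annotated start, on the plus strand, 5′ to 3′: Hmgcs1 at chr13:119690101-119690350, Idi1 at chr13:8885356-8885605, Lss at chr10:76531355-76531604 and Insig1 at chr5:28071162-28071411. Capitals mark matches on either strand to the core of the sterol regulatory element (CACNCCAC), the inverted CCAAT box (ATTGG) and the E-box (CACGTG). The first is known as a binding element of SREBP, the second of its partner NF-Y, and the third of BMAL1 with CLOCK among other factors.
Hmgcs1: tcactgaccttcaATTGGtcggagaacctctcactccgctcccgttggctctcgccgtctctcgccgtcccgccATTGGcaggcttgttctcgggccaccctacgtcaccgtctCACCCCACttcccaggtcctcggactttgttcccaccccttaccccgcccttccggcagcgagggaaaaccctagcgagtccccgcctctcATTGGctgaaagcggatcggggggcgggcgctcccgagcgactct
Idi1: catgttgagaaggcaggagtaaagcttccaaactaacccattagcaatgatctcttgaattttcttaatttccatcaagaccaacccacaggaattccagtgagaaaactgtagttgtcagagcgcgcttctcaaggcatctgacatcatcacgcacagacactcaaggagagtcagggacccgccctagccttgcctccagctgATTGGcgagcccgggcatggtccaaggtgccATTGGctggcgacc
Lss: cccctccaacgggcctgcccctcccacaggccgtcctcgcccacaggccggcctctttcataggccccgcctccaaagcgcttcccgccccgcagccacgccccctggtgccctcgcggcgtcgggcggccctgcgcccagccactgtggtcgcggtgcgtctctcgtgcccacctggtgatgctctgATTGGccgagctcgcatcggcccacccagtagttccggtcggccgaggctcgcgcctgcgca
Insig1: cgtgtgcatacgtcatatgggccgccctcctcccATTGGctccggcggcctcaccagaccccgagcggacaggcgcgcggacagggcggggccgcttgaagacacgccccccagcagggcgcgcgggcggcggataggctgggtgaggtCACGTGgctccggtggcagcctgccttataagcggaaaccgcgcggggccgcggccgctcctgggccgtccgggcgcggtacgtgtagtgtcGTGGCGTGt

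The inverted CCAAT box occurred in all 4 windows, with 3 matches in Hmgcs1, against 33.8% of the 32851 promoter windows of that length. A sterol element core was found in Hmgcs1, with its first base 136 bases before the start, and on the minus strand in Insig1 beside the start, against 5.29% of windows. Insig1 alone of the 4 held an E-box, 101 bases before the start, against 6.02% of windows. The motifs did not overlap. These are matches of letters and were not measured as binding sites.

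Hmgcs1 encodes HMG-CoA synthase, an early step on the way to mevalonate. Its log2 level was 4.25 at the lowest, 4.50 at the median and 4.62 at the highest among the Conv + PBS mice. The values were 4.48, 4.15, 4.41, 4.40 and 4.02 in Conv + LM mice 13, 14, 15, 16 and 17, and 4.74, 4.49, 4.09, 4.20 and 4.38 in Conv + OM(HFD) mice 25, 26, 28, 29 and 30. The groups overlapped, and both the highest mouse (25) and the second lowest (28) received the HFD-microbiota. The probe lay at 114793 to 114852 of an unplaced part of chromosome 13 on mm9, the build of the array design and of every probe position given below. A second, dim probe for the same name was above background on 11 arrays and did not follow the first (Pearson's r of -0.16 over 16 mice), so the values for Hmgcs1 rest on 1 probe.

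Idi1 encodes isopentenyl-diphosphate isomerase, which balances the isoprenoid building blocks, and was read at chr13:8891524-8891583. Its level was 3.07, 3.74 and 4.06 at the lowest, median and highest Conv + PBS mouse, 3.89, 3.71, 3.29, 3.43 and 3.51 in the Conv + LM mice in the same order as above, and 4.24, 3.63, 3.45, 3.35 and 2.46 in the Conv + OM(HFD) mice. The extremes of all 16 mice, mice 25 and 30, both belonged to Conv + OM(HFD). Fdps encodes farnesyl diphosphate synthase, at the branch toward sterols, dolichol and prenylated proteins, and was read at chr3:88897549-88897608. Its level was 4.85, 5.44 and 5.51 at the lowest, median and highest Conv + PBS mouse, 5.83, 5.08, 4.92, 5.35 and 5.37 in Conv + LM and 5.63, 5.37, 4.81, 4.60 and 4.80 in Conv + OM(HFD). The 3 lowest mice of the study for Fdps were Conv + OM(HFD) mice 28, 29 and 30, and a single Conv + PBS mouse (6) lay near them.

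Fdft1 encodes squalene synthase, the first step given over to sterols, and was read at chr14:63765457-63765516. Its level was 3.69, 3.99 and 4.26 at the lowest, median and highest Conv + PBS mouse, 3.97, 4.25, 3.69, 4.16 and 3.59 in Conv + LM and 4.27, 4.05, 3.60, 3.58 and 3.46 in Conv + OM(HFD). The groups overlapped over most of their range. Sqle encodes squalene epoxidase, a second control point of the pathway, and was read at chr15:59162688-59162747. Its level was 2.24, 2.85 and 2.98 at the lowest, median and highest Conv + PBS mouse, 3.05, 2.22, 1.56, 2.56 and 2.54 in Conv + LM and 3.59, 2.25, 1.85, 1.73 and 1.55 in Conv + OM(HFD). Sqle varied most of the 7, by 4.12-fold between the highest and the lowest mouse. Of the Conv + OM(HFD) mice, 3 lay below every Conv + PBS mouse and mouse 25 lay above every other mouse in the study.

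Lss encodes lanosterol synthase, which closes the sterol rings, and was read at chr10:76016592-76016651. Its level was 1.07, 1.36 and 1.61 at the lowest, median and highest Conv + PBS mouse, 1.74, 1.31, 1.25, 1.27 and 1.09 in Conv + LM and 1.50, 1.37, 0.98, 0.92 and 0.94 in Conv + OM(HFD). As for Sqle and Fdps, Conv + OM(HFD) mice 28, 29 and 30 were low and mouse 25 was high. Insig1, the sterol-dependent retention factor, was read at chr5:28404246-28404305. Its level was 0.89, 1.13 and 1.35 at the lowest, median and highest Conv + PBS mouse, 0.89, 0.66, 0.54, 0.99 and 0.89 in Conv + LM and 0.66, 0.91, 0.59, 0.85 and 0.87 in Conv + OM(HFD). Of the 5 Conv + OM(HFD) mice 4 lay below every Conv + PBS mouse, though the groups still overlapped. Mouse 25, the highest of the 16 for Hmgcs1, Idi1, Fdft1 and Sqle, was among them.

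**Figure D1:**
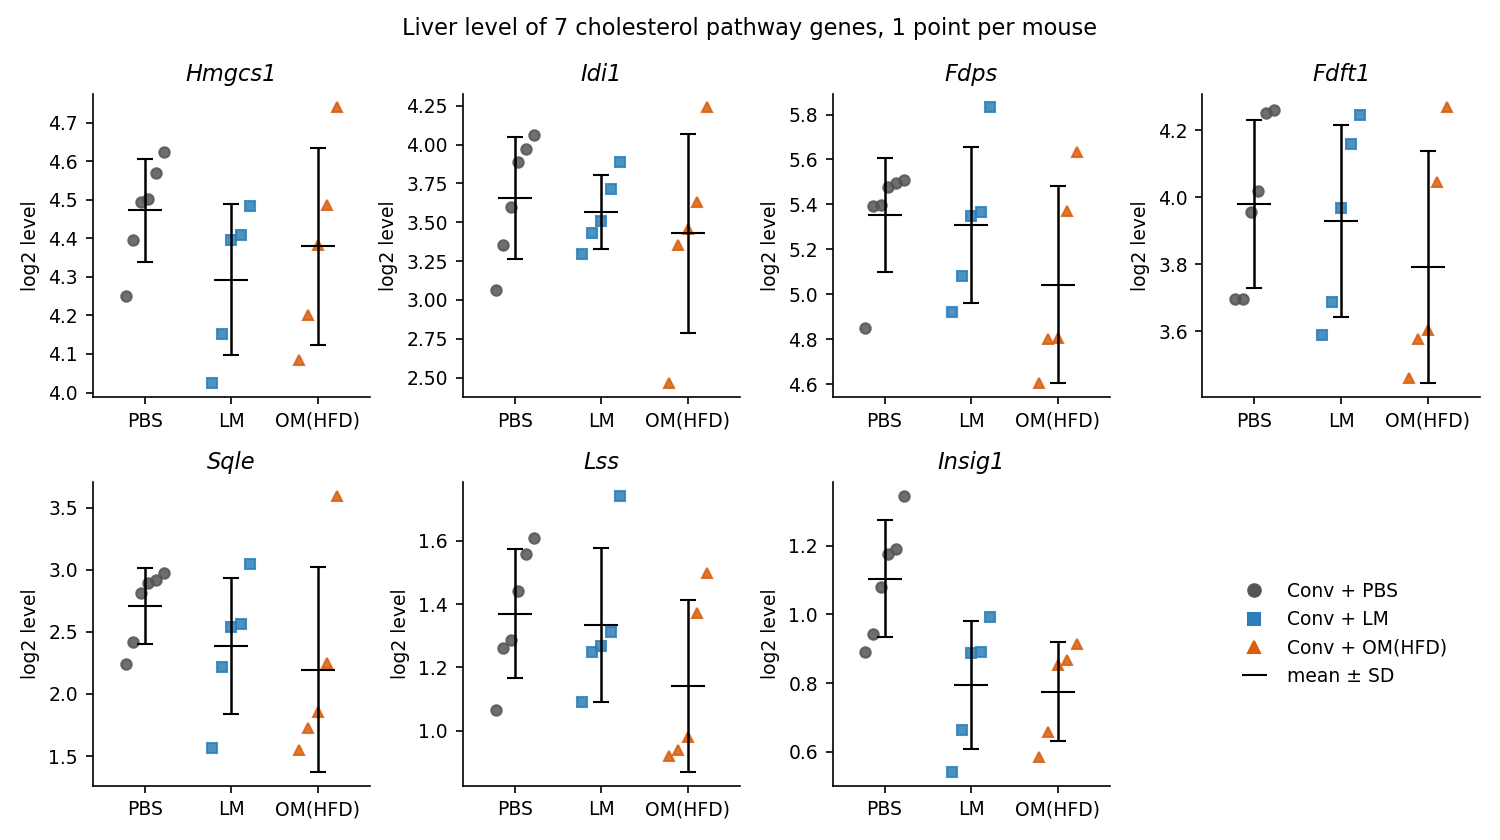
Log2 level relative to the 75th percentile of the array (vertical axis) of each of the 7 genes in each mouse, by group; bars show mean ± SD of 6, 5 and 5 mice. The 3 groups overlap for every gene, and Insig1 is lower on average in both transplanted groups. The Conv + OM(HFD) mice have the largest SD of the 3 groups for each of the 6 enzymes, above all Sqle and Idi1.

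The first question was whether the transplants moved the pathway against the vehicle. After HFD-microbiota transfer all 7 genes had a lower mean than in Conv + PBS, with log2 fold changes from -0.51 (Sqle) to -0.09 (Hmgcs1) and a median of -0.23, against a median of -0.01 over all genes tested, of which 53.4% were lower. Of the 7, Insig1 alone was lower at an unadjusted limma p under 0.05, while 1.96% of all genes tested were. Mean Insig1 was 1.104 ± 0.17 (SD, n = 6) in Conv + PBS and 0.78 ± 0.14 (SD, n = 5) in Conv + OM(HFD). On the log2 scale Insig1 differed by -0.33, standard error 0.11 (limma unadjusted p = 0.00702, adjusted p = 1; exact two-sided permutation p = 0.0108, where 0.00216 is the smallest that 5 against 6 mice allow). No gene on the array passed adjustment in any of the 3 comparisons.

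The 6 enzymes were lower on average after HFD-microbiota transfer by amounts within the spread of the mice. For Sqle the means were 2.71 ± 0.30 (SD, n = 6) and 2.20 ± 0.82 (SD, n = 5), which gives -0.51 on the log2 scale and a 95% interval from -1.21 to 0.18 (limma unadjusted p = 0.137, exact permutation p = 0.197). For Fdps they were 5.35 ± 0.25 (SD, n = 6) and 5.04 ± 0.44 (SD, n = 5), a change of -0.31 with an interval from -0.73 to 0.11. For Lss they were 1.37 ± 0.20 (SD, n = 6) and 1.14 ± 0.27 (SD, n = 5), a change of -0.23 with an interval from -0.53 to 0.07. Idi1 (-0.23), Fdft1 (-0.19) and Hmgcs1 (-0.09) had unadjusted p values of 0.387, 0.290 and 0.451. The intervals of Sqle, Idi1, Fdps, Fdft1 and Lss reached down to -0.53 or lower, so decreases of that size could not be told from none at this number of arrays. Mouse 25 bore on the count: without it 4 of the 7 genes were lower at an unadjusted p under 0.05, with Sqle at -0.86, Fdps at -0.46 and Lss at -0.32 beside Insig1. With arrays weighted by their quality the count was 3.

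After lean microbiota transfer the same gene stood out. All 7 means were lower than in Conv + PBS, with a median log2 fold change of -0.09 against -0.02 over all genes, of which 55.1% were lower. Insig1 was at 0.80 ± 0.19 (SD, n = 5), which is -0.31 from the vehicle on the log2 scale, standard error 0.11 (limma unadjusted p = 0.0103, adjusted p = 0.995; exact permutation p = 0.0238). It was the only 1 of the 7 at an unadjusted p under 0.05, against 2.32% of all genes lower. Both comparisons used the same 6 Conv + PBS mice, so their directions are not independent of each other. Among the enzymes the largest changes were in Sqle (-0.32, interval -1.02 to 0.37) and Hmgcs1 (-0.18, interval -0.44 to 0.08). Fdps, Fdft1 and Lss differed by -0.04, -0.05 and -0.04.

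Between the transplants the difference was smaller for Insig1 than against the vehicle. Conv + OM(HFD) and Conv + LM differed by -0.02 for Insig1, with an interval from -0.25 to 0.22. The enzymes differed by -0.27 (Fdps) to 0.09 (Hmgcs1), the median of the 7 genes was -0.14 against 0.00 over all genes, and 6 of the 7 means were lower in Conv + OM(HFD), as were 49.1% of all genes. By limma 0 of the 7 passed an unadjusted p under 0.05, against 2.71% of all genes in either direction, and the smallest exact p that 5 against 5 mice allow is 0.00794. Without mouse 25 the count was 1 (Sqle at -0.54).

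**Figure D2:**
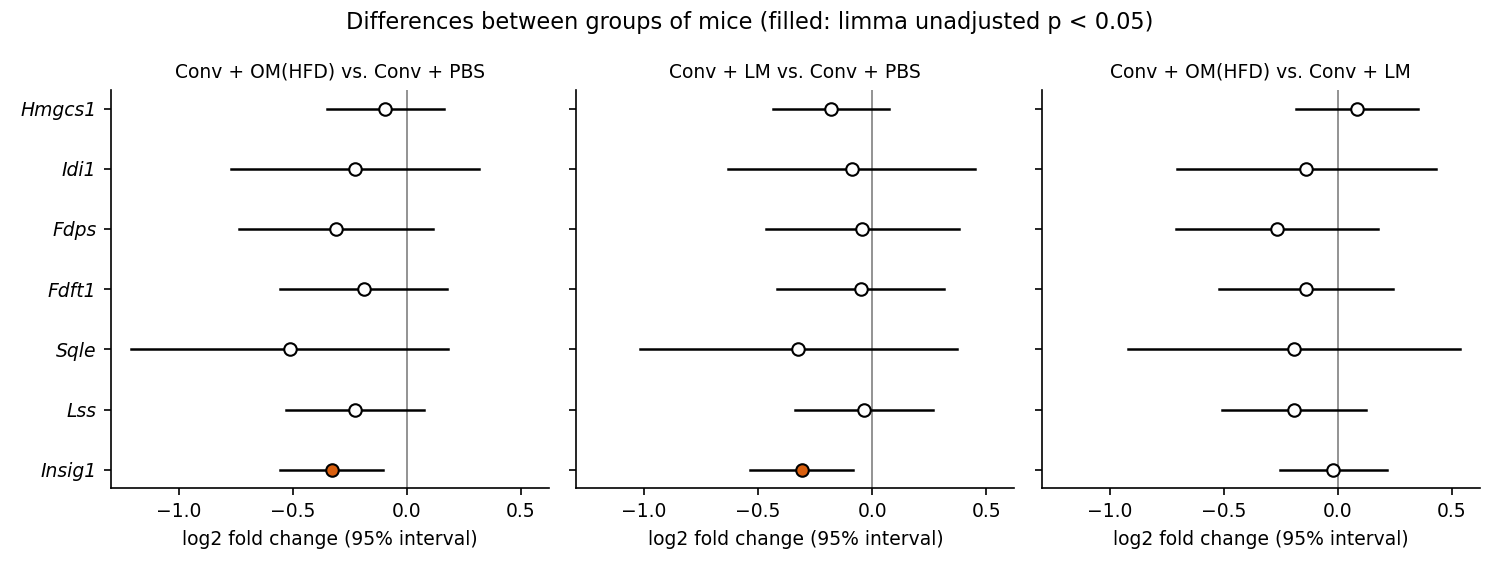
Log2 fold change (horizontal axis) of the 7 genes in the 3 comparisons, with 95% intervals from limma; filled points have an unadjusted p under 0.05. Insig1 is at -0.33 and -0.31 against Conv + PBS, and every enzyme interval crosses 0.

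The second question was whether the genes moved together from mouse to mouse. To leave the groups out, each value was taken as its deviation from the mean of its own group. The 6 enzymes rose and fell together: all 15 pairs correlated positively over the 16 mice, with Pearson's r from 0.48 (Hmgcs1 with Idi1) to 0.88 (Fdps with Sqle) and a median of 0.61. Of the 15, 13 had an unadjusted permutation p under 0.05. After Benjamini-Hochberg adjustment over all 21 pairs of the 7 genes 4 passed. They were Fdps with Sqle (r = 0.885, Spearman's rho = 0.83, permutation p = 4e-05, adjusted p = 0.00084), Idi1 with Sqle (r = 0.785, rho = 0.776, permutation p = 0.00133, adjusted p = 0.0113), Fdps with Lss (r = 0.839, rho = 0.782, permutation p = 0.00161, adjusted p = 0.0113) and Sqle with Lss (r = 0.685, rho = 0.594, permutation p = 0.00523, adjusted p = 0.0275). By rank correlation Sqle with Lss did not pass (adjusted permutation p = 0.0612) and Idi1 with Fdps did (rho = 0.744, adjusted permutation p = 0.0133), while the other 3 passed by both measures. Without the 2 mice farthest from the median of the first gene these 4 gave r of 0.851, 0.691, 0.733 and 0.666. For the 15 pairs as a whole r then ran from 0.32 to 0.85. Within slide 1 the same 4 gave 0.934, 0.870, 0.928 and 0.841, and within slide 2 they gave 0.826, 0.683, 0.733 and 0.273.

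Insig1 did not follow the enzymes in these mice. Its r with the 6 enzymes ran from -0.20 (Idi1) to 0.17 (Fdps), rho ran from -0.06 to 0.31, and 0 of the 6 pairs had a permutation p under 0.05, adjusted or not. Over the 16 mice the residual spread of Insig1 was also small, with a within-group SD of 0.17 on the log2 scale. It was 0.58 for Sqle, with a median of 0.24 over all genes tested. The enzyme Hmgcs1 (0.20) also lay below that median, and Lss (0.24) was close to it. The spread alone does not set Insig1 apart. Whether the correlations of Insig1 differ from those of the enzymes was not tested.

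**Figure D3:**
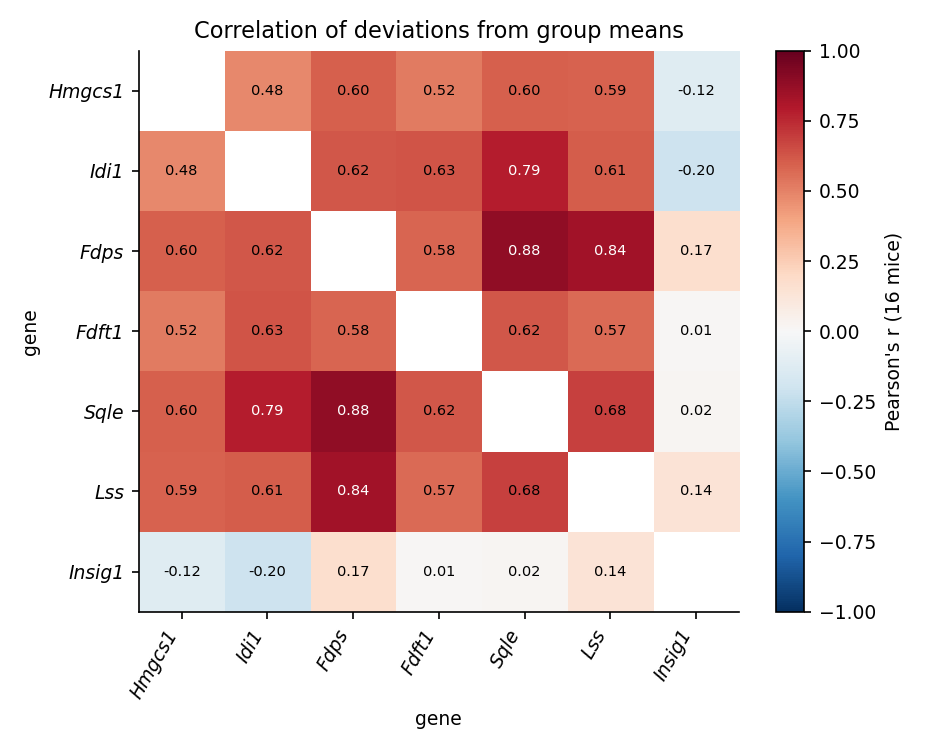
Pearson's r over 16 mice between deviations from group means for each of the 21 pairs of the 7 genes (colour and printed value). The block of the 6 enzymes holds values from 0.48 to 0.88, and the row of Insig1 lies between -0.20 and 0.17.

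The co-movement of the enzymes held on each slide, with a median r of 0.70 within slide 1 and 0.48 within slide 2, though single pairs on slide 2 went down to 0.01 (Idi1 with Lss). It leaned on mouse 25: without it the median of the 15 pairs was 0.45, while leaving out any other mouse gave 0.60 to 0.67. When Hmgcs1 was used as a regressor for every other gene beside group, 4 of the other 6 genes had a positive slope at an unadjusted limma p under 0.05 (Sqle, Fdps, Fdft1 and Lss), against 5.78% of all genes. Of the 6, 0 passed limma's adjustment, against 0.0245% of all genes. With Sqle, Fdps or Lss as the regressor the unadjusted count was 5 (against 6.27%, 6.34% and 7.51% of all genes). With Idi1 or Fdft1 it was 4 (6.62% and 8.29%) and with Insig1 0 (1.85%). Past adjustment 1 of the others followed Fdps, among 4 genes of all tested that did, and 0 followed any other member. The number of the other 6 genes with r at or above 0.6 depended on the reference gene. It was 5 for Sqle (against 3.01% of all genes), 4 for Idi1 (3.47%), 3 for Fdps (3.32%) and 3 for Lss (4.57%). It was 2 for Fdft1 (5.15%), 1 for Hmgcs1 (2.94%) and 0 for Insig1 (0.745%).

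The third question was how the genes lay against the clock. The clock genes varied widely among these mice: the level of Arntl ran from -3.26 to 0.20, an 11.1-fold range, and that of Dbp from 3.68 to 6.18, a 5.65-fold range. Each group held mice from most of these ranges, and neither gene passed the test in any comparison of groups (limma unadjusted p from 0.573 to 0.911). Arntl and Dbp opposed each other, with r of -0.95 over the deviations. The mice were spread along both genes without separate clusters, the largest gap between neighbours being 0.246 of the range of Arntl and 0.154 of that of Dbp. The number each mouse carries in the labels went with the clock genes: within each of the 3 groups Dbp was lower in every mouse of higher number (Spearman's rho of -1), and Arntl was higher (rho of 0.89 in Conv + PBS, 0.90 in Conv + LM and 1 in Conv + OM(HFD)). The enzyme mean had rho of -0.54, -0.50 and -1 with that number in the same order of groups, and Insig1 had 0.14, 0.10 and 0.20. These are descriptions over 6, 5 and 5 mice, noticed in the data and given without a test. What the number stands for (such as an order of handling) was not given in the sources used here, so anything that went with it cannot be told apart from the clock genes in the correlations and slopes given here.

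The enzymes tended to be lower in mice with higher Arntl, though not in every mouse: in Conv + PBS mouse 5, with Arntl above the mean of its group, 5 of the 6 enzymes were above theirs. The slopes on Arntl, fitted beside group for every gene on the array, were negative with an unadjusted limma p under 0.05 in 6 of the 7 members, against 10.5% of all genes. After adjustment over all genes 2 of the 7 passed, against 3.88% of all genes. Idi1 fell by 0.31 log2 units for each log2 unit of Arntl (standard error 0.08, r = -0.74, limma adjusted p = 0.0249) and Lss fell by 0.16 (standard error 0.05, r = -0.72, limma adjusted p = 0.0449). Sqle (slope -0.37), Fdft1 (-0.19) and Fdps (-0.22) lay just short of the threshold, with adjusted p of 0.0515, 0.0529 and 0.0544, and Hmgcs1 (slope -0.10) had 0.194. Insig1 had a slope of 0.02 with a standard error of 0.05 (adjusted p = 0.818). By size of r alone, 5 of the 7 had r with Arntl at or below -0.6, against 7.3% of all genes.

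Dbp gave the mirror image. Slopes were positive at an unadjusted limma p under 0.05 in 5 of the 7 members (all enzymes but Hmgcs1, whose adjusted p was 0.215), against 10.7% of all genes. After adjustment 2 passed, against 3.94% of all genes: Fdft1 (slope 0.27, standard error 0.07, r = 0.76, adjusted p = 0.0234) and Idi1 (slope 0.37, standard error 0.11, r = 0.69, adjusted p = 0.0445). Insig1 had r of -0.29 with Dbp (slope -0.06, adjusted p = 0.573). At or above an r of 0.6 with Dbp lay 2 of the 7, against 7.46% of all genes. Since Arntl and Dbp mirror each other, the fits on them are not separate evidence.

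**Figure D4:**
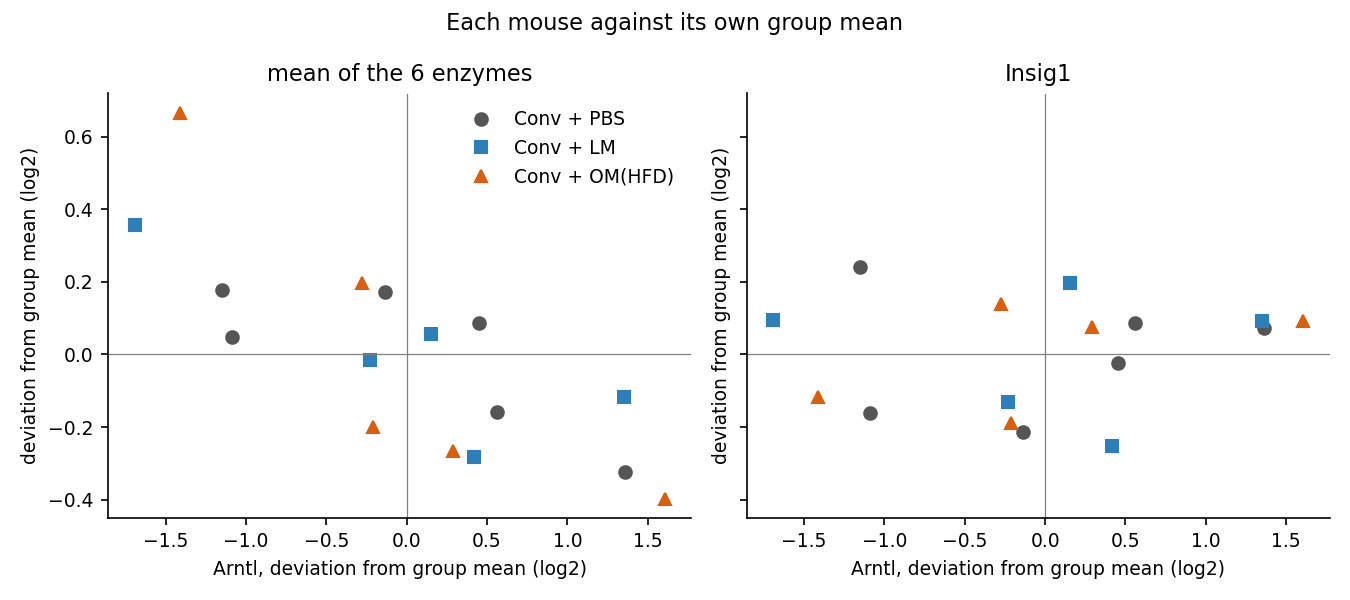
Deviation of each mouse from its group mean on the log2 scale, for the mean of the 6 enzymes (left) and Insig1 (right) on the vertical axis against Arntl on the horizontal axis; symbols mark the groups. The enzyme mean slopes downward in all 3 groups (r = -0.80 over 16 mice), and Insig1 shows no slope (r = 0.14).

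The number of members that passed adjustment depended on the processing. With the slide as a block 0 of the 7 passed for Arntl and 1 for Dbp, without mouse 25 or without mouse 30 none passed for either gene, without Conv + PBS mouse 6 none passed for Dbp, and quantile normalization raised the Arntl count to 5. Each of the 6 enzymes kept a negative slope on Arntl when any 1 mouse was left out. Of these 16 fits, Idi1 passed adjustment on Arntl in 14 and Lss in 4. For Dbp, Fdft1 passed in 12 and Idi1 in 3. The second, dim probe of Hmgcs1 had the opposite sign, with r of 0.21 with Arntl against -0.55 for the probe used. Within slide 1 the enzymes' r with Arntl ran from -0.86 to -0.47 and within slide 2 from -0.72 to -0.40. Without the 2 mice farthest from the median of Arntl it ran from -0.74 to -0.53, against -0.74 to -0.55 in all mice. The arrays also differed in brightness, and the 75th percentile correlated with the enzyme mean (r = 0.56) and with Arntl (r = -0.48) over the 16 mice. Its part in the result was not tested.

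The other clock genes were listed as the positive arm with genes of its phase, and as repressors and outputs. For the first list the median r of the 6 enzymes was -0.61 with Clock, -0.54 with Cry1 and -0.52 with Nfil3. For the second it was 0.57 with Bhlhe40, 0.47 with Ciart, 0.43 with Per3, 0.42 with Per1, 0.36 with Nr1d1, 0.35 with Tef and 0.28 with Per2. It was near 0 for Nr1d2 (0.09), Hlf (-0.08) and Usp2 (-0.19). Of the 112 relations between 7 genes and 16 clock genes, 29 had an unadjusted permutation p under 0.05 by Pearson's r, and 0 passed adjustment over the 112 (smallest adjusted p = 0.0753). By Spearman's rho 7 passed, all at an adjusted permutation p of 0.0299, of which 5 belonged to Fdft1 (with Arntl, Clock, Nfil3, Cry1 and Dbp), 1 to Idi1 (with Arntl) and 1 to Lss (with Bhlhe40). Npas2 and Bhlhe41 did not pass the filter on dim features.

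**Figure D5:**
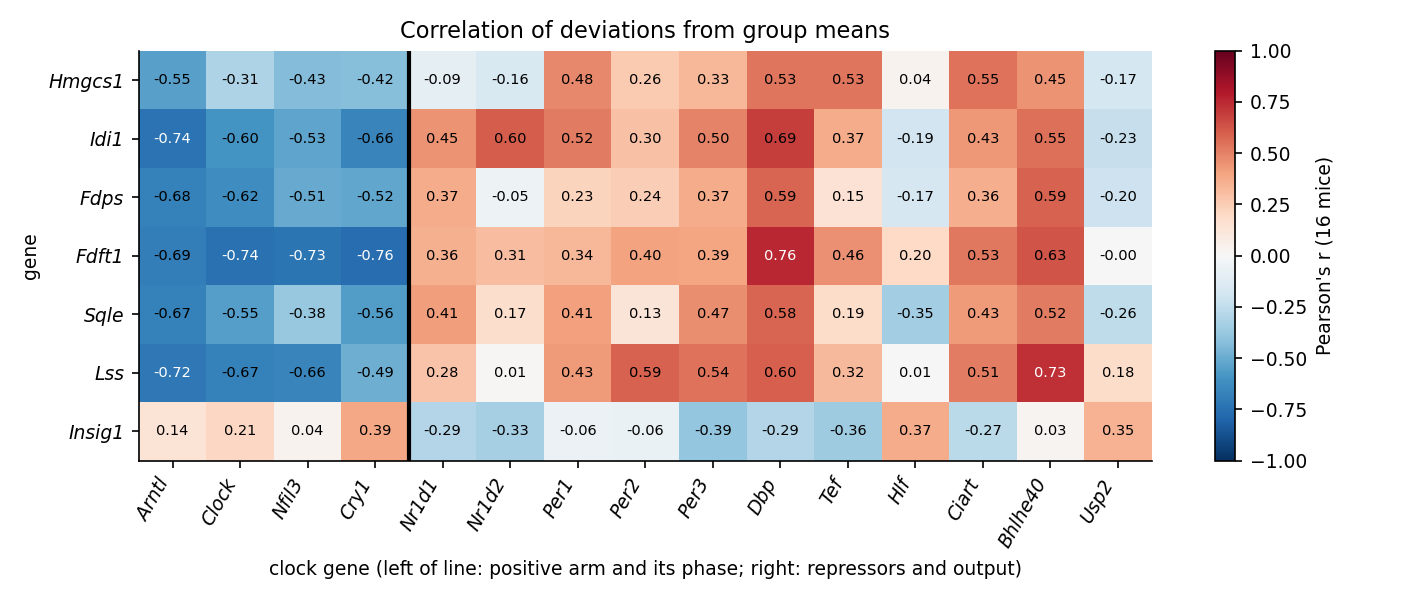
Pearson's r over 16 mice between deviations from group means of the 7 genes (rows) and 15 clock genes (columns), the positive arm and genes of its phase left of the line and repressors and output genes right of it. The 6 enzymes are all negative with the 4 genes on the left, while Insig1 is positive with all 4.

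The co-movement of the enzymes was smaller beside Arntl. When the level of Arntl was fitted beside group and removed, all 15 enzyme pairs still correlated positively, but r ran from 0.14 to 0.79 with a median of 0.30, against 0.61 before. With Arntl in the fit Insig1 differed from Conv + PBS by -0.33 after HFD-microbiota transfer and by -0.31 after lean microbiota transfer, both at an unadjusted limma p under 0.05.

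The wider pathway was examined with the same fits. Of 16 other cholesterol synthesis enzymes 15 were tested. Against Conv + PBS 13 of these had a lower mean after HFD-microbiota transfer and 12 after lean microbiota transfer, with medians of -0.07 and -0.09, while 53.4% and 55.1% of all genes tested were lower. After HFD-microbiota transfer 1 of them, Sc5d, a late desaturase, was lower at an unadjusted limma p under 0.05 (-0.32, p = 0.0234, exact permutation p = 0.0455). On Arntl 4 of the 15 had a negative slope past adjustment (Mvk, Sc5d, Msmo1 and Nsdhl, with r of -0.88, -0.89, -0.77 and -0.69), against 3.88% of all genes, and 0 a positive one, against 4.59%.

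Srebf2, the gene of SREBP-2, differed by 0.05 after HFD-microbiota transfer (exact permutation p = 0.60) and had r of 0.37 with Arntl. The sterol carrier Stard4 had a negative slope on Arntl past adjustment (r = -0.80, limma adjusted p = 0.0107). Among 6 genes of escort, retention and cleavage, Insig2, the second retention factor, had a positive slope on Arntl (r = 0.83, limma adjusted p = 0.00509). The r between Insig1 and Insig2 was 0.01. Scap had r of -0.69 with Arntl (adjusted p = 0.0995). Mbtps1, the first protease that cuts SREBP, was lower after HFD-microbiota transfer than in Conv + PBS (-0.17, limma unadjusted p = 0.0426, exact permutation p = 0.0455) and than in Conv + LM (-0.26, limma unadjusted p = 0.00554, exact permutation p = 0.0159), and did not pass adjustment.

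The neighbouring SREBP-1 pathway of fatty acid synthesis gives a scale for these values. Of its 16 genes 8 were lower after HFD-microbiota transfer at an unadjusted limma p under 0.05, against 1.96% of all genes, with a median log2 fold change of -0.52 against -0.23 for the 7 cholesterol genes. Among them were Fasn (-0.76, limma p = 0.0388, exact permutation p = 0.0649) and Acss2 (-0.53, limma p = 0.00724, exact permutation p = 0.0195). After lean microbiota transfer 1 of the 16 was lower (Me1, -0.43, limma p = 0.0134, exact permutation p = 0.00649), against 2.32% of all genes. None passed adjustment. Srebf1, the gene of SREBP-1, followed the clock genes (r = -0.83 with Arntl, adjusted p = 0.00520) and was not among the 8 (-0.25, p = 0.539). Of 12 fasting genes that PPAR-alpha controls, 8 had a positive slope on Arntl past adjustment, opposite in sign to the enzymes, against 4.59% of all genes, and 0 of the 12 passed an unadjusted p under 0.05 between the groups in any comparison.

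The genes most like the mean of the 7 standardized members over the 16 mice, by r, included members of the same pathway. Insig1 itself had r of 0.20 with that mean. The 10 highest were NAP002856-002 (0.92) and ENSMUST00000177157 (0.90), both named only by the array design, Rdh11 (0.90), Sgsm1 (0.89), Msmo1 (0.89), Mmab (0.89), Cd80 (0.87), 2310034O05Rik (0.87), Neil2 (0.87) and Mvk (0.87). Msmo1 and Mvk are sterol and mevalonate enzymes, Rdh11 is a retinol dehydrogenase and Mmab serves vitamin B12 metabolism. The 5 lowest were Mif4gd (-0.89), Clcn5 (-0.88), Fcgrt (-0.87), Mrpl28 (-0.86) and Cnnm4 (-0.85), each with a positive r with Arntl of 0.75 to 0.90.

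Markers of other cells were set beside the enzymes. Over the 16 mice the log2 of the summed signal of 5 neutrophil markers had r of 0.47 with the enzyme mean, that of 4 B cell markers 0.49 and that of 3 adipose markers -0.48, and the 5 hepatocyte markers had -0.45. The neutrophil sum ran from 1.01 to 4.36 in Conv + PBS, from 1.02 to 1.35 in Conv + LM and from 1.08 to 4.43 in Conv + OM(HFD), with 3 of the 5 markers above background on every array. The B cell sum ran from -1.84 to 0.05, from -1.26 to 0.02 and from -1.48 to 0.43, with 1 of the 4 above background on every array and 1 on none. Of the 3 B cell markers tested, 2 had a negative slope on Arntl past adjustment (against 3.88% of all genes) and 0 a positive one. Among 4 bile duct markers 1 had a positive slope past adjustment (against 4.59%) and 0 a negative one. The adipose sum ran from -2.78 to -1.27, from -3.01 to 2.77 and from -4.44 to -1.02, with 0 of the 3 above background on every array. The Kupffer cell sum, of 4 markers all above background on every array, ran from 4.12 to 6.47 in Conv + PBS, from 4.05 to 4.50 in Conv + LM and from 4.14 to 5.56 in Conv + OM(HFD), and had r of 0.28 with the enzyme mean. All 4 Kupffer cell markers had lower means in both transplanted groups than in Conv + PBS. Their median log2 fold changes were -0.57 after lean microbiota and -0.16 after HFD-microbiota transfer. By limma 0 of the 4 passed an unadjusted p under 0.05 in either. By group median all 4 were lower in Conv + LM than in Conv + PBS but higher in Conv + OM(HFD). The median of Cd5l was 4.12 in Conv + OM(HFD) and 3.96 in Conv + PBS, where the highest mouse was at 6.01. The hepatocyte sum stayed between 11.35 and 11.73 throughout. Of 4 stellate cell markers 2 were lower after HFD-microbiota transfer at an unadjusted limma p under 0.05, Lrat (-0.64, p = 0.000346, exact permutation p = 0.00649) and Dcn (-0.27, p = 0.0329, exact permutation p = 0.0455), against 1.96% of all genes, while Col1a1 had a higher mean (0.63, exact permutation p = 0.413). The stellate sums ran from 5.56 to 6.05 in Conv + PBS and from 5.33 to 5.85 in Conv + OM(HFD). The part of these cells in the results was not tested.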

How the data were processed

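Liver RNA (200 ng per mouse) was labelled in 1 colour and hybridized to Agilent mouse expression arrays by the authors, whose processing notes name Agilent Feature Extraction 10.10.1.1 and limma. The deposited scanner files hold spot intensity values, among them a processed intensity corrected for background and spatial trend within each array but not between arrays. A second deposited file gives log2 values per array from the authors and was used as an alternative. Within each array these values ranked the spots as the median intensity did (Spearman's rho of 1). No authors' fold changes or p-values were used.

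Here the log2 processed intensity was taken minus log2 of the 75th percentile of each array over its spots other than controls. Control spots were left out and spots of a probe averaged. The brightest probe on average stood for each gene name, and genes well above background on at least 5 arrays were tested. Groups were taken from the labels. Comparisons and slopes on the level of a gene (beside group) were fitted across all genes with limma 3.58.1 in R 4.3.3 with Benjamini-Hochberg adjustment. Single genes were also tested by exact two-sided permutation over mice. Correlations used deviations from group means with 100000 permutations in scipy 1.17.1 (two-sided). The farthest 2 mice were left out together as a check. The fits were tested on simulated data. Figures were drawn with matplotlib 3.10.9.

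The members and gene lists were chosen with earlier results of these data known. The 7 members were described in full. From the other lists, genes past a threshold and the defining genes of the pathway were named. The labels give the mice as separate animals, and the number of arrays limits the precision. Of the gene names tested, 14641 matched a RefSeq symbol, 701 a synonym and 5069 neither, and the name of the array design was then kept. Promoters of Hmgcs1, Idi1, Lss and Insig1 came from RefSeq, and matched 4 of the 7 members. The alternatives were background correction by normexp, quantile normalization, the authors' values, the filter, the mean of probes, the slide as a block, array weights, no group term, rank correlation and leaving out each mouse. Some genes of the wider lists are not reported here.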

Additional observations from a re-analysis of the deposited data

Results flagged for a closer look

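The levels of the 7 genes and of Arntl and Dbp were screened in each of the 3 groups, 27 sets of values in all, and 1 value stood far from the others of its group. Fdps was at a log2 level of 4.85 in Conv + PBS mouse 6, apart from the other 5 control mice by 0.826 of the range of the group. Chance sets apart about 1 in 20 groups in this way.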

How the results depend on the processing

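No paired analysis was run, since no replicate number occurred in more than 1 group and the labels name no pairs. Insig1 kept an unadjusted limma p under 0.05 against Conv + PBS in every setting run, from 0.00377 to 0.0238 after HFD-microbiota and from 0.00544 to 0.0358 after lean microbiota when single mice were left out. The count of members lower after HFD-microbiota transfer was 3 with array weights and 1 to 4 with single mice left out (4 without mouse 25), and between transplants it was 0 to 1. The count of members with an adjusted slope on Arntl, 2 as reported, was 5 with quantile normalization, 5 with only probes above background on all arrays, 5 with no group term, 4 with the mean of probes, 4 with array weights, 0 with no filter and 0 with the slide as a block. Other Arntl probes, alternatives chosen after seeing the data, followed the one used (r of 0.92 and 0.90). With 1 of them the count was 0, and with the other it did not fall. With single mice left out the count on Arntl was 0 to 3: 0 without mouse 25 or 30, and 1 without Conv + PBS mouse 2, 3 or 6, Conv + LM mouse 15 or 16, or Conv + OM(HFD) mouse 26 or 29. For Dbp it was 0 with no filter, 1 with the slide as a block, and 0 to 3 with single mice left out: 0 without Conv + PBS mouse 6 or Conv + OM(HFD) mouse 25 or 30, and 1 without Conv + PBS mouse 2, 3 or 4, any Conv + LM mouse, or Conv + OM(HFD) mouse 26, 28 or 29. Unadjusted, the Dbp count was 2 to 6 (2 without mouse 25, 3 without Conv + PBS mouse 6 or Conv + LM mouse 13). The median r among the 7 members was 0.248 with Arntl removed, also chosen after seeing the data, and 0.369 with the mean of all probes. Small differences changed sign: Insig1 between transplants was 0.0245 with normexp and 0.0022 with the authors' values, and Fdps after lean microbiota was 8.96e-06 with the authors' values. With single mice left out the log2 fold change after HFD-microbiota ran from -0.430 to 0.0142 for Idi1. After lean microbiota it ran from -0.173 to 0.0540 for Fdps, from -0.129 to 0.0351 for Fdft1 and from -0.140 to 0.0234 for Lss. Between transplants it ran from -0.00355 to 0.16 for Hmgcs1, from -0.34 to 0.10 for Idi1 and from -0.0829 to 0.0295 for Insig1. The cause was not tested.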
